A study of Mus musculus with 24 samples.

Results

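The genes of the major histocompatibility complex (MHC) and of antigen presentation made up 40 of the 17017 genes measured in primary mouse alveolar macrophages. They were chosen by name: the 21 protein-coding genes whose symbol begins with H2-, and 19 genes for class I and class II loading, the immunoproteasome, their regulators, lipid presentation and costimulation. By role they were 13 class I heavy chains, 13 genes of class I loading and regulation, 9 class II genes, 4 costimulatory or checkpoint molecules (the ligands Cd80, Cd86 and Cd274 and the receptor Cd40), and H2-Ke6, an enzyme of steroid and fatty acid metabolism that lies in the complex and encodes no MHC chain. The cells came from wild-type BALB/cJ mice and were sequenced 20 h after stimulation. They received recombinant IL-33, IL-13 and IL-17A together, any pair of these, 1 of them, or nothing, which gave 8 groups of 3 libraries. Whether replicate libraries stem from different mice or wells is not stated, and the p-values therefore reflect library-to-library spread, which may be technical.

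Class I molecules, a heavy chain paired with beta-2 microglobulin, show peptides cut by the proteasome to CD8 T cells. TAP carries the peptides into the endoplasmic reticulum, where tapasin and its relatives load them. Class II molecules show peptides from engulfed material to CD4 T cells. The invariant chain Cd74 guards their groove, H2-DM exchanges the peptide, H2-O restrains H2-DM, and Ciita is the master regulator of the set, as Nlrc5 is for class I. Alveolar macrophages are known for low class II and weak T cell priming, and Cd80 and Cd86 are the ligands that costimulate T cells through CD28, while Cd274 (PD-L1) restrains them through PD-1.

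By the test used, IL-13 changed 23 of the 35 tested members, IL-33 changed 1 of them and IL-17A changed 0. Averaged over 4 backgrounds (no other cytokine, IL-33, IL-17A or both), 12 members rose with IL-13 and 11 fell. Of all tested genes 20.0% rose and 30.9% fell, so the share of members that fell was near that of all genes. Cd80 and Nlrc5, among the 11, entered the test through the libraries without IL-13, where they were higher. With IL-13 averaged over those backgrounds, H2-M2 rose 2.77-fold, the immunoproteasome subunit Psmb10 1.94-fold, Cd274 1.58-fold and Cd74 1.49-fold on the scale of TPM + 1. H2-D1 and B2m, the most abundant class I chains, fell by 0.26 and 0.17 on the log2 scale. The class II chains H2-Aa and H2-Ab1 did not pass the test, and Cd86, too low to be tested in the fit of all genes, was at 0.113 ± 0.0373 TPM with IL-13 and 0.473 ± 0.103 TPM without it (SD, n = 12 each).

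The promoter windows of 6 members the results turn on are shown for comparison: 3 that rose most and had a window (Psmb10, Cd274 and H2-M2), a class II chain (H2-Eb1), and the class I pair that fell (H2-D1 and B2m). Each covers 250 bases before and 50 bases after the RefSeq start on GRCm38.p6 and is written 5′ to 3′ along the gene. Psmb10 is at chr8:105938343-105938642 on the minus strand, Cd274 at chr19:29367188-29367487 on the plus strand and H2-M2 at chr17:37483505-37483804 on the minus strand. H2-Eb1 is at chr17:34305617-34305916, H2-D1 at chr17:35262844-35263143 and B2m at chr2:122147437-122147736, all on the plus strand. Capitals mark matches, on either strand, to ATTGG (the core of the Y or CCAAT box), AGCAAC (a core of the class II X box), the interferon-stimulated response element (GAAA repeated after any 2 bases), and STAT dimer sites (TTC and GAA with any 3 or 4 bases between them, the longer spacer being the form known for STAT6, the factor that IL-13 activates).
Psmb10: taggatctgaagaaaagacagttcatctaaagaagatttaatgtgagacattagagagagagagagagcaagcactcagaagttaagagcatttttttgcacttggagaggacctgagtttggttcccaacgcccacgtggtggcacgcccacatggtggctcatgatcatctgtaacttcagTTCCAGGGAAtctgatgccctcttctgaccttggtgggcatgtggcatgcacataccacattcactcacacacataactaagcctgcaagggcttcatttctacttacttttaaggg
Cd274: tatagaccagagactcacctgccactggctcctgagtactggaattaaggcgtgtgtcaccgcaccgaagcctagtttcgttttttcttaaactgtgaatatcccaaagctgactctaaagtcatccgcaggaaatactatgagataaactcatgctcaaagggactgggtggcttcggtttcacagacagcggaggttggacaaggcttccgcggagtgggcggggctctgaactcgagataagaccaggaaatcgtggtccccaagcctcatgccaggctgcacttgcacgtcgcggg
H2-M2: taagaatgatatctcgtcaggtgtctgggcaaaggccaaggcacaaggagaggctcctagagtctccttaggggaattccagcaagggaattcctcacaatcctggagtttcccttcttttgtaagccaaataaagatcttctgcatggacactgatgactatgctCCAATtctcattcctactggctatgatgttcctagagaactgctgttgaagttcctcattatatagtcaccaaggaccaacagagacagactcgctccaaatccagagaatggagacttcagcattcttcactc
H2-Eb1: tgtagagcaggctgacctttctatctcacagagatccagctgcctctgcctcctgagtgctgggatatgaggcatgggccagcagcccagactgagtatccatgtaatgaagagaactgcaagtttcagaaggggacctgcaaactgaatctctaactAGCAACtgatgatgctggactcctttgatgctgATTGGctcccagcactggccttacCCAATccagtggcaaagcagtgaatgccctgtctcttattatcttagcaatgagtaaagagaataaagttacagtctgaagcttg
H2-D1: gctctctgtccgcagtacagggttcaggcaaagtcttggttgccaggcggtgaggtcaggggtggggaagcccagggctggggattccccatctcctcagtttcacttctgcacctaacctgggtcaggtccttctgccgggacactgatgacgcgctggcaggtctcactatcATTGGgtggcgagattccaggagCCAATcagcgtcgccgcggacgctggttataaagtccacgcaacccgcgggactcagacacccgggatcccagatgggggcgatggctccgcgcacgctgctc
B2m: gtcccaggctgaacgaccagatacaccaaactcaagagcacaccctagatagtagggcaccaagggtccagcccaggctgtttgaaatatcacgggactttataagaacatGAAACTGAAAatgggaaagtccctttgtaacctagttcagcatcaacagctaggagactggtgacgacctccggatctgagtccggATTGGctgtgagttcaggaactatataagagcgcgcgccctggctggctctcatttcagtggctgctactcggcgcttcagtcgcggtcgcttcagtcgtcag

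In these windows H2-Eb1 held an X box core and a Y box core on the coding strand, at bases -92 and -59 from the start, with a further Y box core at -35 on the other strand. H2-D1 and B2m each held a Y box core within 76 bases of the start, and B2m also an interferon element at -139. H2-M2 held a Y box core at -84. Psmb10 held the longer STAT form at -67, and Cd274 held none of the 5 motifs. RefSeq windows were found for 29 of the 40 members. The Y box core was in 20 of these 29, 10 of 11 class I heavy chains and 5 of 6 class II genes among them, against 37.4% of all 32851 windows. The X box core was in 4 of 29 against 14.8%, the interferon element in 5 of 29 against 3.44%, the shorter STAT form in 3 of 29 against 8.30% and the longer in 1 of 29 against 6.95%. No matches overlapped in the 6 windows shown, and the search for the longer STAT form was added after the data had been seen. The RefSeq start lay 364 bases from the 5′ end in the deposited tables for H2-D1 and within 52 bases for the other 5.

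Levels of different genes were compared per exon length, because the deposited TPM (a read density scaled to the library total) divides reads by the whole gene span, introns included. On that scale the untreated cells had most of B2m, the light chain (4231 ± 242 TPM, SD, n = 3), and of H2-D1, a classical heavy chain (2130 ± 108 TPM). Tapbp, which is tapasin, followed at 472 ± 8.36 TPM and H2-T23, the chain known as Qa-1, at 337 ± 17.7 TPM. H2-K1, the other classical heavy chain among the members, was listed at 42.2 ± 1.21 TPM.

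Among class II genes the order was led by Cd74 at 205 ± 21.1 TPM per exon length in untreated cells, then H2-DMa at 25.7 ± 2.21 TPM. The chains themselves were low: H2-Ab1 was at 8.09 ± 1.29 TPM, H2-Eb1 at 5.72 ± 1.36 TPM and H2-Aa at 0.444 ± 0.168 TPM. Ciita, the class II regulator, was at 0.221 ± 0.114 TPM. The levels of H2-Ab1 and H2-Eb1 lay within 2 SD of each other, as did those of Ciita and H2-Aa. Of the costimulatory genes Cd274 was at 125 ± 6.20 TPM, Cd80 at 3.88 ± 0.694 TPM and Cd86 at 2.33 ± 0.759 TPM, and Cd40, the receptor for T cell help, had no read in the 3 untreated libraries and 11 reads over all 24.

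**Figure D1:**
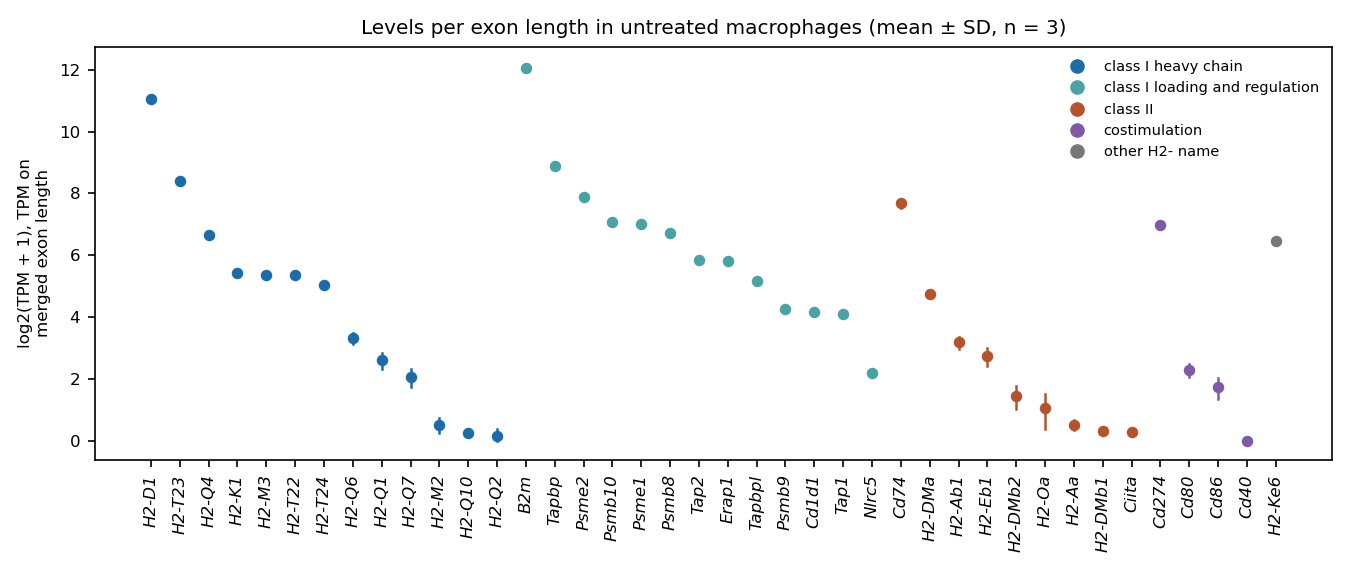
Mean level of each of the 40 members in untreated macrophages, as log2(TPM + 1) with TPM on merged exon length (vertical axis), by role along the horizontal axis; points are means and lines the SD of 3 libraries. B2m (4231 TPM) and H2-D1 (2130 TPM) stand highest, and Cd74 (205 TPM) lies far above the class II chains H2-Ab1 (8.09 TPM), H2-Eb1 (5.72 TPM) and H2-Aa (0.444 TPM).

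The genome build is that of a C57BL/6 mouse, which carries the b haplotype of H2, while BALB/c carries the d haplotype. Reads of these polymorphic genes were therefore placed across haplotypes, in every library alike, and the levels of H2-K1, H2-D1 and the other polymorphic chains relative to each other carry that limit. Paralogs and overlapping genes may also share reads. Recovered reads were whole in all 24 libraries for 25 members, among them H2-K1, B2m, Psmb10, Cd74 and H2-M2, but in only 3 libraries for H2-D1, 1 for H2-Q4, 4 for H2-T22, 3 for H2-DMa, 2 for Cd274, 1 for Tapbp and 1 for Erap1, where fractions were assigned.

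The libraries held 9.13 to 12.89 M recovered reads, and 11569 to 12204 genes at 1 TPM or more. Libraries stood apart in 2 ways: 4 had title numbers above 24 (IL-33 replicate 3, replicates 2 and 3 with IL-33 and IL-17A, and replicate 3 of the triple combination), and 3 were apart on the second principal component (untreated replicate 1, IL-17A replicate 2 and replicate 2 of the triple combination). Members with a TPM of 1 in at least 3 libraries entered the test, 35 of 40. H2-Q2, Ciita, H2-DMb1, Cd40 and Cd86 did not. The label was checked with 10 alveolar macrophage markers, whose summed level on gene span was 15266 to 17283 TPM with IL-13 and 13250 to 14254 TPM without it. Of the 9 tested, 7 rose and 2 fell. Those that fell were Siglecf (means of 296 TPM with IL-13 and 527 TPM without it) and Cd68 (8035 and 9447 TPM). Cd68 was the largest part of the sum, and Ear2, which rose, was at 3617 and 619 TPM. Marco (0.149 to 0.799 TPM) and Car4 (0 to 2.72 TPM) were near 0. Of 8 dendritic cell markers 6 were listed, and their sum was 1.83 to 4.999 TPM with IL-13 and 3.13 to 5.53 TPM without it, with Xcr1 and Ccr7 at a median of 0. Of 8 markers of interstitial macrophages and monocytes 6 were listed, with a sum of 56.7 to 74.1 TPM with IL-13 and 54.8 to 71.3 TPM without it. Of 5 epithelial markers 3 were listed, and their sum was 26.3 to 42.8 TPM with IL-13 and 6.73 to 8.96 TPM without it, mostly Cdh1, and 1 of the 3 rose and 2 fell. Markers of B cells and of T and NK cells were not analysed here. The part of other cells in the results was not tested, and in bulk RNA fewer cells of a type cannot be told apart from less RNA per cell.

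The question of the first comparison was what IL-13 did to the presentation genes whatever else was present. It set the 12 libraries with IL-13 against the 12 without in limma on log2(TPM + 1), and p-values were adjusted over all 13215 tested genes. An adjusted p under 0.05 was taken as a call. Of the 35 members 12 were called higher and 11 lower, where 20.0% of all tested genes were higher and 30.9% lower. The 11 include Cd80 and Nlrc5, which entered the test through libraries without IL-13, and the count carries that limit. With a log2 fold change of at least 0.5, 4 members were higher and 0 lower, where 4.16% and 4.83% of all genes were. The median log2 fold change was -0.017 over the members and -0.047 over all genes.

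Among the heavy chains 3 of 12 rose and 3 fell. H2-D1 had 2597, 2791 and 3043 TPM as lowest, median and highest of the 12 libraries with IL-13, against 3158, 3379 and 3554 TPM without it. Without overlap, every library with IL-13 lay below every library without it. The log2 fold change was -0.26 (SE 0.02, limma adjusted p = 1.39e-08), and H2-D1 was called lower in each of the 4 backgrounds.

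H2-K1, the other classical chain among the members, fell too. It had 61.7, 73.8 and 83.4 TPM with IL-13, against 71.2, 85.5 and 100.9 TPM without it (lowest, median and highest of 12), and the ranges overlapped. Its log2 fold change was -0.21 (SE 0.05, limma adjusted p = 0.00136). H2-Q4, a non-classical chain, was the third heavy chain that fell, by 0.15 on the log2 scale. H2-T23 rose by 0.12 and H2-T24 by 0.25.

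H2-M2, a heavy chain of the H2-M cluster whose function is not well known, rose most and was a gene of few reads. It had 10.2, 7.52 and 9.04 TPM in the IL-13 libraries, against 1.17, 0.720 and 0.373 TPM in untreated libraries. These were 77 and 6 reads summed over 3 libraries. With IL-13 and IL-17A it had 7.39, 13.3 and 7.35 TPM, against 0.957, 1.42 and 1.72 TPM with IL-17A. All 12 libraries with IL-13 lay above all 12 without it. The nearest were replicate 3 of the triple combination (1.99 TPM, 6 reads) and IL-17A replicate 3 (1.72 TPM, 5 reads). H2-M2 was called higher in 3 of the 4 backgrounds, and not with IL-33 and IL-17A. The mean TPM was 4.82 times as high with IL-13. The averaged log2 fold change was 1.47 (SE 0.10, limma adjusted p = 4.05e-10), and it moved between 1.23 and 1.94 over the alternatives tried.

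The other heavy chains did not pass the test in the averaged comparison. H2-Q1 ranged over 1.95 to 16.2 TPM with IL-13 and 4.58 to 13.8 TPM without it, and its log2 fold change was -0.37 (SE 0.23, limma adjusted p = 0.194). H2-Q7 was at 0.17, H2-M3 at 0.051, H2-Q6 at -0.013, H2-T22 at -0.078 and H2-Q10 at -0.17 on the log2 scale. H2-Q2 had 17 reads in all.

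B2m, the light chain of every class I molecule, had 1794, 1712.5 and 1752 TPM in the IL-13 libraries, against 2109, 1948 and 1970 TPM in untreated libraries. Over the 12 against 12 libraries it had 1639, 1744 and 1995 TPM with IL-13 and 1899, 1984 and 2109 TPM without it (lowest, median, highest). The ranges overlapped through replicate 2 of the triple combination and replicate 1 with IL-33 and IL-13. The averaged log2 fold change was -0.17 (SE 0.02, limma adjusted p = 2.99e-06).

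Tapbp, Tap1 and Tap2 fell by small amounts. Tapbp, which bridges TAP and the heavy chain, was lower (log2 -0.16, limma adjusted p = 4.89e-06). Tap1 and Tap2, the transporter chains, were at -0.10 and -0.093 on the log2 scale, and the Tap1 call was lost in 22 of 34 alternatives. Cd1d1, which presents lipids, fell by 0.23 on the log2 scale. Tapbpl, a peptide editor related to tapasin, rose by 0.20, and Erap1, the peptide trimmer of the endoplasmic reticulum, was at 0.026 (limma adjusted p = 0.627).

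Psmb10, the immunoproteasome subunit also called MECL-1 (mm10 chr8:105935735-105938444, minus strand), rose in every background. It had 464, 443 and 449 TPM in the IL-13 libraries, against 261, 236 and 251 TPM in untreated libraries. With IL-13 and IL-17A it had 449, 469 and 463 TPM, against 254, 276 and 257 TPM with IL-17A. The lowest library with IL-13 (443 TPM) lay far above the highest without it (276 TPM). The averaged log2 fold change was 0.96 (SE 0.03, limma adjusted p = 4.91e-16).

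Neither of the other subunits that replace constitutive ones in the immunoproteasome passed the test. Psmb8 had 282 ± 11.3 TPM with IL-13 and 281 ± 11.04 TPM without it, and Psmb9 had 34.3 ± 1.88 and 34.7 ± 2.01 TPM (with and without IL-13, SD, n = 12 each). Their log2 fold changes were 0.0045 (95% interval -0.042 to 0.051) and -0.017 (-0.088 to 0.055). Psme1 and Psme2, the chains of the proteasome activator PA28, both rose by 0.15, and the Psme1 ranges did not overlap. Nlrc5, the class I regulator, had 0.514, 0.818 and 1.04 TPM with IL-13 and 0.848, 1.05 and 1.40 TPM without it (lowest, median, highest of 12), a log2 fold change of -0.19 (limma adjusted p = 0.00873). It reached 1 TPM in 10 libraries without IL-13 and 2 with it, and so passed the filter through the libraries where it was higher.

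**Figure D2:**
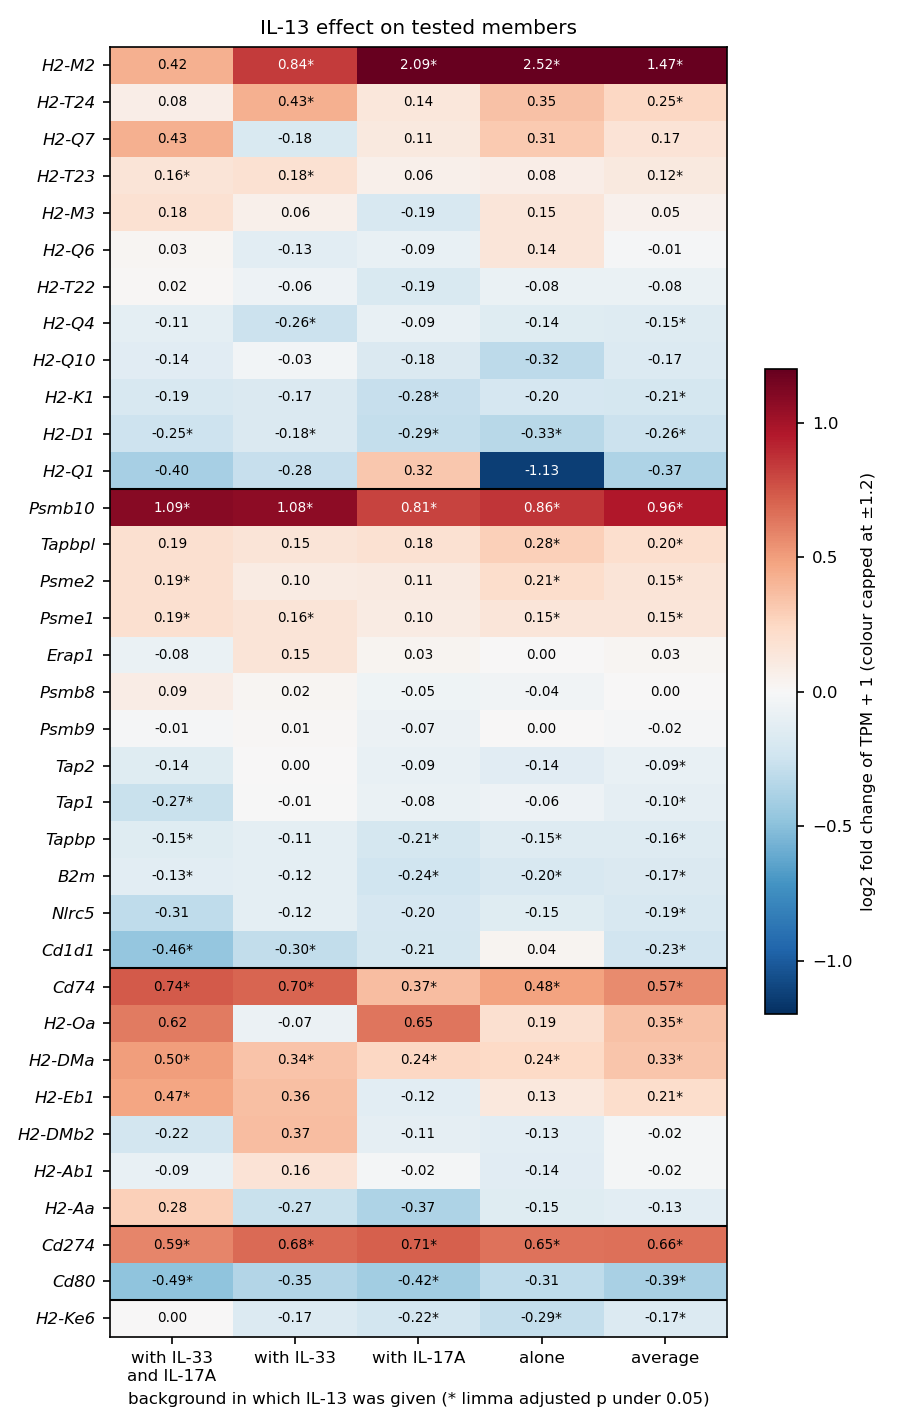
Log2 fold change of TPM + 1 with IL-13 for the 35 tested members (rows, in blocks by role) in the 4 backgrounds and on average (columns); the colour runs from -1.2 to 1.2 and asterisks mark a limma adjusted p under 0.05. Psmb10, Cd74, H2-DMa and Cd274 carry an asterisk in every column and H2-D1 does so below 0, and Psmb8 and Psmb9 are at 0.0045 and -0.017 on average.

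Of 7 tested class II genes 4 rose (Cd74, H2-DMa, H2-Oa and H2-Eb1) and 0 fell, where 20.0% of all genes were higher and 30.9% lower. The calls of H2-Oa and H2-Eb1 were lost in 17 and 18 of 33 alternatives. Cd74 had 171, 162 and 155 TPM in the IL-13 libraries, against 126, 117 and 105 TPM in untreated libraries. With IL-13 and IL-17A it had 166, 153 and 154 TPM, against 121, 132 and 112 TPM with IL-17A. No library with IL-13 was as low as any without it. The averaged log2 fold change was 0.57 (SE 0.04, limma adjusted p = 6.36e-11).

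H2-DMa, a chain of the peptide exchange factor, had 15.8, 17.8 and 19.2 TPM with IL-13, against 12.7, 13.3 and 15.1 TPM without it (lowest, median and highest of 12). The ranges did not overlap, and the log2 fold change was 0.33 (SE 0.03, limma adjusted p = 3.57e-08). Its partners H2-DMb1 and H2-DMb2 had 77 and 161 reads in all, and the averaged value for H2-DMb2 was -0.021. H2-Oa, a chain of the H2-DM inhibitor, rose by 0.35 on 108 reads in all.

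The chains that present peptide were low. H2-Ab1 had 4.63, 4.72 and 4.69 TPM in the IL-13 libraries, against 4.66, 6.30 and 4.90 TPM in untreated libraries, and its averaged log2 fold change was -0.022 (95% interval -0.19 to 0.14). H2-Aa had 1.58, 0.545 and 0.401 TPM in the IL-13 libraries, against 1.03, 1.34 and 0.595 TPM in untreated libraries, an average of -0.13 (-0.39 to 0.13). H2-Eb1 had 4.28, 2.99 and 3.01 TPM in the IL-13 libraries, against 3.79, 2.97 and 2.43 TPM in untreated libraries. Within these 3 genes the libraries of the compared groups overlapped. The averaged value of H2-Eb1 was 0.21 (limma adjusted p = 0.0481).

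Ciita, which is needed for induced class II expression, had at most 0.359 TPM in any library. It had 0.184, 0.134 and 0.168 TPM in the IL-13 libraries, against 0.0652, 0.201 and 0.125 TPM in untreated libraries, with 175 reads over all 24. With no filter on low values, limma-voom on recovered reads, an alternative added after the data had been seen, gave Ciita a log2 fold change of 0.71 (SE 0.29, adjusted p = 0.0471) and H2-DMb1 one of 1.07 (SE 0.32, adjusted p = 0.00718). The sum of the dendritic cell markers overlapped between libraries with and without IL-13. It was mostly Clec9a, at a mean of 2.62 TPM with IL-13 and 3.06 TPM without it. Zbtb46 was at 0.502 and 0.203 TPM and Fscn1 at 0.349 and 0.719 TPM (with and without IL-13). Whether dendritic cells had a part in the class II values was not tested.

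The T cell ligands split. Cd274 (mm10 chr19:29367455-29388095, plus strand) had 108, 103 and 99.7 TPM in the IL-13 libraries, against 61.0, 68.4 and 67.6 TPM in untreated libraries. Over all backgrounds it had 87.1, 107 and 110.96 TPM with IL-13, against 58.3, 66.4 and 70.9 TPM without it (lowest, median, highest of 12), without overlap. Its log2 fold change was 0.66 (SE 0.04, limma adjusted p = 6.53e-11), between 0.59 and 0.71 in the 4 backgrounds.

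Cd80 and Cd86, the CD28 ligands, went the other way. Cd80 had 0.720, 0.566 and 0.674 TPM in the IL-13 libraries, against 1.16, 1.14 and 0.841 TPM in untreated libraries. Its averaged log2 fold change was -0.39 (SE 0.06, limma adjusted p = 3.91e-05), a value that the added 1 TPM makes smaller. The ratio of its mean TPM with IL-13 to that without was 0.542. The log2 fold change of Cd80 was below 0 in all 4 backgrounds. It was called with IL-17A and with IL-33 and IL-17A, and the former call was lost in 5 alternatives. Neither IL-13 alone nor IL-13 with IL-33 called Cd80. Cd80 reached 1 TPM in 8 libraries without IL-13 and 0 with it. It thus entered the test only through the libraries where it was higher, and its p-value carries that limit. Cd86 had 0.1002, 0.0742 and 0.0818 TPM in the IL-13 libraries, against 0.355, 0.563 and 0.308 TPM in untreated libraries, or 17 and 76 reads.

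Every library with IL-13 had less Cd86 (0.0702 to 0.185 TPM) than every library without it (0.308 to 0.599 TPM). Limma-voom on recovered reads with no filter put it 4.02-fold lower with IL-13 (log2 -2.01, SE 0.17, adjusted p = 1.38e-10), and lower in each of the 4 backgrounds. Cd40 had at most 0.118 TPM in any library, and limma-voom with no filter did not call it (log2 0.11, adjusted p = 0.858).

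Ranges of 12 against 12 libraries did not overlap for 6 tested members that were higher (H2-M2, Psmb10, Psme1, Cd74, H2-DMa and Cd274) and 1 that was lower (H2-D1), where 6.18% of all tested genes were higher and 8.87% lower in this way. H2-Ke6, the enzyme, fell by 0.17 on the log2 scale.

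**Figure D3:**
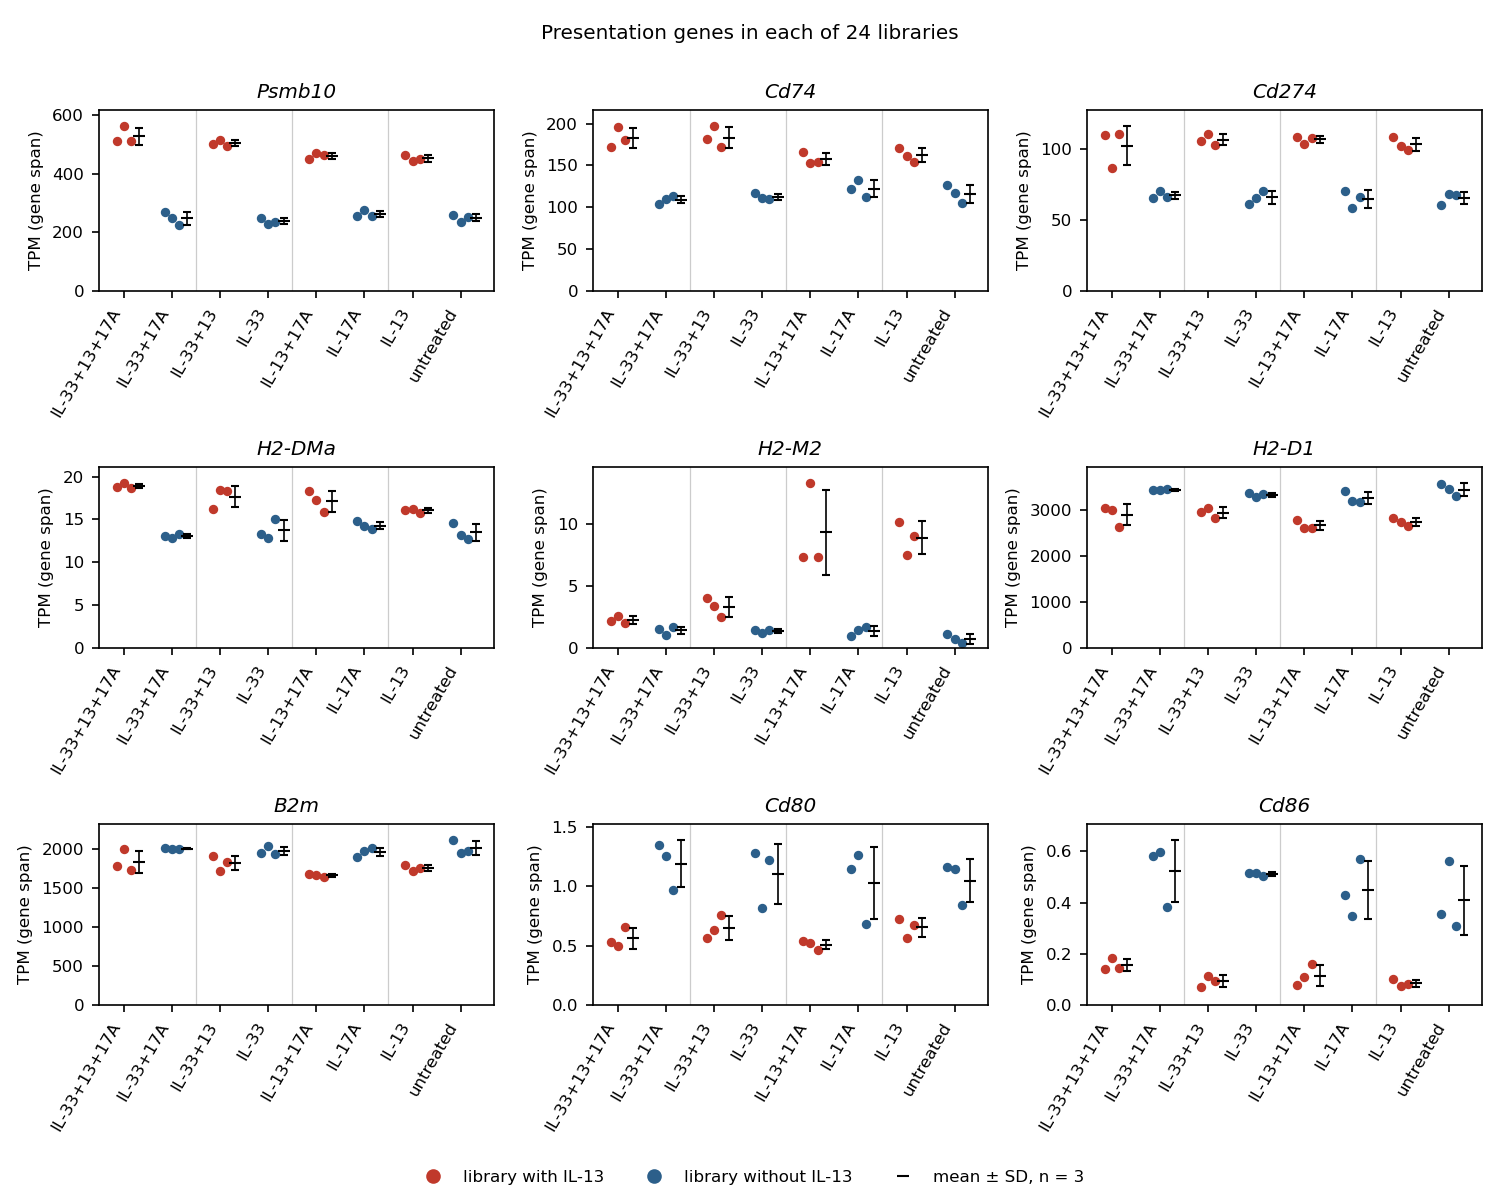
TPM on gene span (vertical axes from 0) of 9 members in each library, with IL-13 (red) left of the matching group without it (blue) in each of the 4 backgrounds; dots are libraries and the black mark the mean ± SD of 3. Red and blue do not overlap for Psmb10, Cd74, Cd274, H2-DMa, H2-M2, H2-D1 and Cd86 over the 24 libraries, while B2m and Cd80 overlap.

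The 4 IL-13 comparisons shared no library, but they were taken from the same fit, which gave each gene a common variance. Their calls were therefore not fully separate readings. The IL-13 effect could also differ between backgrounds, as the interaction with IL-33 given below shows for H2-M2, Cd74 and Psmb10. Against untreated cells IL-13 raised 8 members and lowered 4, where 14.1% of all genes were higher and 15.7% lower. In the presence of IL-17A 5 were higher and 6 lower, where 12.2% and 17.6% of all genes were. With IL-33 present, 8 were higher and 3 lower (11.2% and 12.8% of all genes). With both present 8 were higher and 6 lower (11% and 21.7% of all genes). Cd80 was among those lower with IL-17A and with both, under the limit of the filter given above.

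Psmb10, Cd74, H2-DMa and Cd274 were called higher in all 4 comparisons and H2-D1 lower, which is 11.4% and 2.86% of the 35 members, where 6.72% and 8.76% of all genes were called in all 4. B2m and Tapbp were called lower in 3, and Psme1 and H2-M2 higher in 3. The share of all genes called in 3 was not counted. With only the compared groups in the fit, B2m and Tapbp lost the call with IL-33 and IL-17A. Psme1 then lost its calls for IL-13 alone and with IL-33. The falls depended on the scaling between libraries. With IL-33 and IL-17A present, median-ratio scaling raised the median of all genes by 0.10. There B2m was at -0.017 and H2-D1 at -0.14 (limma adjusted p = 0.907 and 0.156) with median-ratio scaling, against -0.13 and -0.25 without it. The same scaling ended the B2m calls for IL-13 alone and with IL-17A (limma adjusted p = 0.171 and 0.114) and the H2-D1 call with IL-33 (adjusted p = 0.147). The averaged calls of B2m and H2-D1 held in all 34 alternatives, the lowest and highest values being -0.19 and -0.12 for B2m and -0.27 and -0.21 for H2-D1.

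IL-33 without IL-13 called 0 of the 35 members in limma, alone or beside IL-17A, and 2 and 4 members had an unadjusted p under 0.05, as had 3.66% and 4.74% of all genes. Over all genes 0% were called for IL-33 alone and 0.00757%, a gene that fell, beside IL-17A, and limma-voom also called 0 members. Where IL-13 was present, IL-33 lowered H2-M2 and in the main fit called no other member. Of all genes 1.74% were lower and 0.832% higher beside IL-13, and 2.40% lower and 1.15% higher beside IL-13 and IL-17A. The count of members raised beside IL-13 and IL-17A, 0 in the main fit, moved in 8 alternatives, to at most 9. H2-M2 had 4.04, 3.42 and 2.50 TPM with IL-33 and IL-13, against 10.2, 7.52 and 9.04 TPM with IL-13. The triple combination had 2.17, 2.62 and 1.99 TPM, against 7.39, 13.3 and 7.35 TPM with IL-13 and IL-17A.

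In both pairs every library with IL-33 had less H2-M2 than every library without it. The log2 fold changes were -1.21 (SE 0.20, limma adjusted p = 0.00169) and -1.62 (SE 0.20, limma adjusted p = 7.19e-05). With only the compared groups in the fit the second missed the threshold (limma adjusted p = 0.0594). Averaged over 4 backgrounds H2-M2 was the single member called for IL-33 (-0.58, limma adjusted p = 0.00262, where 2.02% of all genes were lower and 0.621% higher), and limma-voom did not call it (adjusted p = 0.173).

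The direct test of whether IL-33 changed the IL-13 effect was the interaction, the IL-13 effect with IL-33 minus that without it. It called 3 members, H2-M2 lower and Cd74 and Psmb10 higher, where 2.11% and 1.46% of all genes were. For H2-M2 the IL-13 effect was 0.84 with IL-33 and 0.42 with IL-33 and IL-17A, against 2.52 alone and 2.09 with IL-17A on the log2 scale. The value with IL-33 and IL-17A was not called (limma adjusted p = 0.122), and the call with IL-33 was lost with limma-voom (adjusted p = 0.0517). The interaction was -1.67 (SE 0.20, limma adjusted p = 4.23e-05) and was called in all 34 alternatives.

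Cd74 had 181, 197 and 172 TPM with IL-33 and IL-13, against 117, 110.8 and 110 TPM with IL-33. The triple combination had 173, 196 and 181 TPM of Cd74, against 104, 110 and 113 TPM with IL-33 and IL-17A. The IL-13 effect on Cd74 was thus 0.70 and 0.74 with IL-33, against 0.48 and 0.37 without it, and all 4 were called. Its interaction was 0.29 (SE 0.07, limma adjusted p = 0.0234).

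Psmb10 had 501, 514 and 494 TPM with IL-33 and IL-13, against 248.6, 229 and 236 TPM with IL-33. The triple combination had 510, 560 and 510 TPM, against 269, 248 and 225 TPM with IL-33 and IL-17A. All 6 libraries with both IL-33 and IL-13 lay above all 6 with IL-13 and no IL-33, which were at 443 to 469 TPM. The share of all genes that separate in this way was not counted, and neither direct IL-33 comparison beside IL-13 called Psmb10. Its interaction was 0.25 (SE 0.05, limma adjusted p = 0.0115).

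The Cd74 and Psmb10 interactions lost their calls under some alternatives. Neither was called under median-ratio scaling, without the 4 libraries whose title numbers run above 24, or without the 3 libraries apart on the second principal component. The values then ran from 0.21 to 0.32 for Cd74 and from 0.19 to 0.28 for Psmb10, and the Cd74 call was also lost without IL-13 replicate 3 (0.27, limma adjusted p = 0.0509). With array weights Cd74 had its lowest value, 0.18, and was not called (limma adjusted p = 0.0643). H2-Eb1, at 0.42, and H2-DMa, at 0.18, had the same sign and did not pass (limma adjusted p = 0.248 and 0.145).

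**Figure D4:**
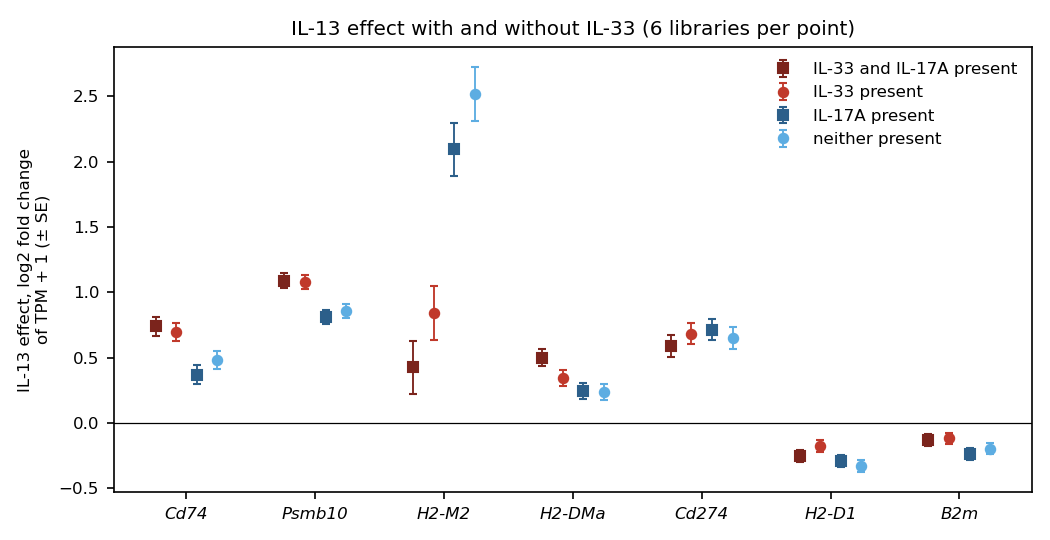
IL-13 effect (log2 fold change of TPM + 1, vertical axis) on 7 members in the 4 backgrounds, points with SE from 6 libraries each; reds have IL-33 present and blues do not. For Cd74 and Psmb10 both red points lie above both blue ones, and for H2-M2 they lie below (0.42 and 0.84 against 2.09 and 2.52).

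IL-17A called 0 of the 35 members in limma in each of the 4 backgrounds and on average, as it called 0% of all genes. Unadjusted p-values under 0.05 were found for 1 member with IL-17A alone, 2 beside IL-13, 4 beside IL-33, 1 beside both and 0 on average. The share of all genes was 3.55%, 2.82%, 3.76%, 6.25% and 3.33% in the same comparisons. The averaged log2 fold changes of the members lay between -0.24 and 0.10. Limma-voom called 0 as well. Neither interaction with IL-17A called a member, with 0 and 1 unadjusted p under 0.05 (with IL-13 and with IL-33), where 5.03% and 3.09% of all genes had one.

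Other genes of the pathway, given for context, moved with IL-13 in 33 of 38 tested cases, 19 higher and 14 lower, where 20.0% and 30.9% of all genes were. Of 7 genes of peptide loading and folding 5 rose and 2 fell. Sec61a1, of the translocon, was at 252 ± 10.6 TPM with IL-13 and 179 ± 4.85 TPM without it, Pdia3 (ERp57, a part of the loading complex) at 551 ± 24.2 and 391 ± 6.20 TPM, and the chaperone Calr at 4329 ± 126 and 3359 ± 83.9 TPM (SD, n = 12 each). Their log2 fold changes were 0.49, 0.49 and 0.37, and that of the peptidase Thop1 was 0.41. Of 4 proteasome genes outside the immunoproteasome, Psmb5, Psmb7 and Psme3 rose by 0.28, 0.12 and 0.088, and Psmb6 fell by 0.092.

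Of 5 tested class II processing genes 2 rose and 2 fell. The thiol reductase Ifi30 rose by 0.24 and the protease Ctss by 0.067, while Ctsl fell by 0.27 and Lgmn fell by 0.13 on the log2 scale. Of 14 transcription and interferon signalling genes 7 rose and 3 fell. Irf8, a macrophage and interferon response factor, was at 61.3 ± 3.49 TPM with IL-13 and 109 ± 3.68 TPM without it (log2 -0.83, limma adjusted p = 4.59e-15), and Irf2 rose by 0.26. Nfyc, a subunit of the factor that binds the Y box, rose by 0.15, and Ifngr2, a chain of the interferon gamma receptor, fell by 0.12.

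Of 8 tested genes of other costimulatory and checkpoint molecules 2 rose and 6 fell. Cd83, an activation marker that steadies surface class II, was at 12.9 ± 1.46 TPM with IL-13 and 28.2 ± 1.64 TPM without it, and Cd276 at 0.615 ± 0.134 and 2.78 ± 0.562 TPM (SD, n = 12 each). Their log2 fold changes were -1.08 and -1.22 (limma adjusted p = 4.04e-15 and 1.59e-12). The checkpoint ligand Vsir fell by 0.45 and the adhesion molecule Cd48 fell by 0.37.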

How the data were processed

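Total RNA of 24 libraries was read on a NovaSeq sequencer, per the labels' protocols. STAR and the mm10 build are named, per the submitters' processing notes. Its version, the read counter and the strand setting were not given in the sources used here. Each library's deposited value is TPM in a table of its own, and per the file headers a length column stands beside it, which equals the gene span. Reads were recovered as TPM times length over the commonest low value. Within 0.05 reads, 90.0% to 91.5% of values up to 20 reads were whole, where chance gives 10.0%. Exon lengths came from GENCODE M21, which held 16998 of the 17017 genes. Coordinates are 1-based, with 1 base taken from the deposited stop.

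Main tests used limma 3.58.1 in R 4.3.3 with a mean-variance trend on log2(TPM + 1), a filter of 1 TPM in 3 or more libraries (13215 genes kept), 8 group means in 1 fit and Benjamini-Hochberg adjustment. The values understate changes near 1 TPM. The script was tested on simulated data. The members and lists were chosen with earlier results of these data known. Values of single libraries are given for members called with IL-13 at a log2 size of 0.5 or more or in any other comparison, and for a list of classical members; up to 4 genes of each pathway list were named by smallest p. Replicates of each group differed by more than sampling noise in all 24 pairs. Alternatives were another pseudocount (0.25), filter (none, 5 TPM), scaling, length, voom, array weights, fewer groups and fewer libraries.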

Additional observations from a re-analysis of the deposited data

Results flagged for a closer look

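The IL-13 effect differed with IL-33 in 3 members by the interaction term in limma, all fitted over the 24 libraries. For Cd74 the interaction was 0.292 on the log2 scale, from IL-13 effects of 0.70 and 0.74 with IL-33, against 0.48 and 0.37 without it. For Psmb10 it was 0.25, from effects of 1.08 and 1.09 with IL-33, against 0.86 and 0.81 without it. For H2-M2 it was -1.67, from effects of 0.84 and 0.42 with IL-33, against 2.52 and 2.09 without it, on a mean of 10.2 reads per library. Their cause was not tested.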

How the results depend on the processing

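No paired analysis was possible because the numbers in the titles run across libraries and no number is shared between groups. Of the counts of called members, 776 alternative values stayed within 1.5 times the main count and 40 did not. Shares of all genes were counted under the main setting only, so the counts below, those with 1 library left out included, stand without one. With exon-length TPM, IL-13 alone lowered 8 members in place of 4, IL-13 with IL-33 lowered 6 in place of 3, and IL-33 with IL-13 and IL-17A raised 1 in place of 0. Limma-voom gave 7 lowered by IL-13 alone, 1 raised by IL-33 with IL-13 and IL-17A and 0 in place of 1 lowered by IL-33 on average, and without a filter, an alternative added after seeing the data, the same 7, 1 and 0. With array weights the lowered members were 7 for IL-13 alone, 6 with IL-33 and 10 in place of 6 with IL-33 and IL-17A. Array weights also gave 9 in place of 5 raised by IL-13 with IL-17A, 2 lowered by IL-33 with IL-13, 9 raised and 3 lowered by IL-33 with IL-13 and IL-17A, 3 raised by IL-17A with IL-33 and IL-13, 1 raised and 2 lowered by IL-33 on average, and 2 lower in the interaction of IL-33 with IL-13. With only the compared groups, IL-13 raised 8 with IL-17A and lowered 2 with IL-33 and IL-17A, and IL-33 lowered 0 with IL-13 and IL-17A. Median-ratio scaling left 3 lowered by IL-13 with IL-17A, 1 with IL-33 and 2 with both, 1 raised by IL-33 with IL-13 and IL-17A, and 0 in place of 2 higher in the interaction. Without the 4 libraries numbered above 24 (IL-33 replicate 3, IL-33 and IL-17A replicates 2 and 3, triple replicate 3) the counts were 2 lowered by IL-13 with IL-33 and IL-17A, 2 raised by IL-33 with IL-13 and IL-17A and 0 higher in the interaction, which was also 0 without the 3 libraries apart on the second component. The cause was not tested.

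Leaving out 1 library at a time, IL-13 lowered 3 to 7 members with IL-17A (3 without IL-13 and IL-17A replicate 3), 1 to 5 with IL-33 (5 and 1 without IL-33 and IL-13 replicates 1 and 3) and 3 to 8 with both (3 without IL-33 and IL-17A replicate 2). IL-33 with IL-13 and IL-17A raised 0 to 3 (1 without IL-13 and IL-17A replicate 2, 3 without triple replicate 3), IL-33 on average raised 0 to 1 (1 without triple replicate 3), and the interaction was higher in 1 to 2 (1 without IL-13 replicate 3). H2-Ab1 changed sign for IL-13 on average, to 0.022 under median-ratio scaling, with -0.052 to 0.017 when 1 library was left out, and passed the test in none. Of the values of single members, 160 lost their call under an alternative with the sign kept, and 1658 kept their sign and their side of the threshold, those that were never called included. Compared groups only was not run for averages and interactions, which use all groups. Depth limits H2-M2, H2-DMb2, H2-Oa, H2-Aa, H2-Q10, H2-DMb1, Ciita, Cd40 and H2-Q2, with a mean of 10.2 reads or fewer.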

Other observations

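H2-Ea, a polymorphic pseudogene in the annotation and so no member, pairs with H2-Eb1 in strains that express it. It had 13.8, 15.6 and 13.6 TPM with IL-33 and IL-13, against 7.47, 3.72 and 9.45 TPM with IL-33, and 15.3, 14.5 and 14.7 TPM with the triple combination, against 4.63, 6.94 and 5.48 TPM with IL-33 and IL-17A. In these groups every library with IL-13 lay above every library without it, and how many of all genes separate in this way was not counted. Over all 12 against 12 libraries the H2-Ea ranges overlapped, at 7.20 to 15.6 TPM with IL-13 and 3.72 to 13.2 TPM without it. The IL-13 log2 fold changes were 1.04 and 1.26 there (limma adjusted p = 0.00552 and 0.000966), and 0.28 and 0.12 without IL-33 (limma adjusted p = 0.476 and 0.801). The interaction was 0.95 (SE 0.26, limma adjusted p = 0.0493), where 1.46% of all genes were higher. It was not followed over the alternatives, and the group means of H2-Ea were 14.7 to 43.3 reads per library. H2-T10, also a polymorphic pseudogene, was at -0.16 for IL-13 on average (limma adjusted p = 0.0197), and H2-Q5 and H2-K2 were not called, at 0.090 and -0.15.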
